A study of Mus musculus with 6 samples.

Results

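Matrix metalloproteinases (MMPs), ADAM and ADAMTS proteases and their tissue inhibitors (TIMPs) were examined in hypoxic neonatal mouse cardiomyocytes with and without β-sitosterol. The members were the protein-coding rows of the deposited count table whose symbols are Mmp, Adam or Adamts followed by a number, or Timp1 to Timp4. They were 80 of the 57010 genes in the table, of which 21848 are annotated as protein coding. Of the 80, 47 had at least 10 counts in 3 or more libraries and are reported, 12 had fewer counts, and 21 had no count in any library.

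The study examined whether β-sitosterol (β-SITO), a plant sterol, protects heart muscle cells from lack of oxygen. Primary neonatal mouse cardiomyocytes (NMCMs) were prepared from the hearts of newborn C57BL/6 mice by enzymatic digestion, and fibroblasts were removed only by their faster adhesion to plastic. RNA was sequenced as 3 HO + Vehicle libraries, V1 to V3, and 3 HO + β-SITO libraries, T4 to T6. HO stands for hypoxia, which all 6 libraries shared, so every value compares sterol with vehicle under hypoxia. The dose and exposure time of β-SITO in these cultures are not given in the sources used here. Nothing states that the 3 libraries of a group came from separate cell preparations, and the p-values measure the spread between these libraries, which may be technical.

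MMPs are zinc-dependent enzymes that are secreted or held in the cell membrane as inactive precursors, and together they cut nearly every protein of the extracellular matrix. ADAMs are membrane proteases, many of which release the outer part of cell-surface proteins, while the secreted ADAMTS enzymes trim proteoglycans, procollagens and other matrix proteins. TIMPs bind the active site of these enzymes and block them, and the balance between proteases and TIMPs is studied in the heart because matrix is broken down and rebuilt after an infarct.

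The libraries held 16694734 to 17082129 counts in the vehicle group and 16962152 to 18460522 in the β-SITO group. Levels are given as CPM, counts divided by library size after TMM normalization, a scaling that assumes that most genes do not differ, and differences as the log2 fold change of β-SITO over vehicle with its standard error (SE). A gene was called at a Benjamini-Hochberg adjusted p under 0.05 in edgeR's quasi-likelihood test with more than a 2-fold change. Scaling by library size alone moved the median log2 fold change of all genes up by 0.148. The names of all 3 β-SITO libraries end in a letter that the vehicle libraries lack, and the treatment cannot be told apart from a separate preparation of those libraries. The cultures were mixed. Summed CPM of 12 fibroblast markers (31128 to 32345 with vehicle, 45872 to 47021 with β-SITO) lay above that of 12 cardiomyocyte markers (6611 to 7561 and 5914 to 10119) in every library, and no marker of either list was at 0. Of these lists, 1 fibroblast marker was called lower and 1 higher, and 3 cardiomyocyte markers were called higher. Over all genes tested, 10.1% were called lower and 12.8% higher. Most of the fibroblast sum came from Col1a1, Col1a2 and Col3a1, which are also among the matrix proteins below. Their means were 9100, 6800 and 10422 CPM with vehicle and 12197, 10215 and 18850 with β-SITO. Markers of macrophages summed to 1284 to 1408 CPM with vehicle and 2949 to 3614 with β-SITO (9 of 12 called higher, 1 lower), endothelial markers to 736 to 823 and 1340 to 1359 (11 of 12 higher), and smooth muscle and pericyte markers to 1404 to 1557 and 2366 to 2725 (7 of 12 higher). Epicardial markers summed to 959 to 996 CPM with vehicle and 253 to 300 with β-SITO. Of 11 tested, 4 were called higher and 2 lower. Aldh1a2 made up most of the sum with vehicle (mean 841.8 CPM) but not with β-SITO (mean 84.9). T4 stood apart from T5 and T6, with cardiomyocyte markers summing to 5914 CPM against 9989 and 10119 and macrophage markers to 3614 against 2961 and 2949. Without T4, 13 of the 47 genes reported below were called lower and 13 higher, against 13 and 12 with it. In bulk RNA, fewer cells of a type and less RNA per cell cannot be told apart, and the part of these cell types in the results was not tested.

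Proteases and inhibitors changed in both directions. Of the 47 reported genes, 13 fell and 12 rose, where 10.1% of all 14799 genes tested were called lower, 12.8% higher and 22.8% either way. A further 15 genes passed the adjusted p within 2-fold, 4 of them lower and 11 higher, and 7 had an adjusted p of 0.05 or more. Across all genes 66.8% passed the adjusted p without regard to fold. Vehicle and β-SITO libraries did not overlap for 41 of the 47, against 70.5% of all genes tested. The median log2 fold change was 0.19 and the median size of the change 1.10, with a range from −6.37 to 3.70, while all tested genes had a median of −0.01 and a median size of 0.44. Counts over the reported genes are a description only, because 3 of them (Mmp1b, Mmp10 and Mmp25) reached 10 counts only with vehicle and 1 (Adamts19) only with β-SITO, so that these had to differ. Without them 10 fell and 11 rose of 43. Nearest to the limit, Adam33 was kept with 10, 5, 6, 30, 21 and 24 counts in V1 to V3 and T4 to T6, and Adamts20 (1, 3, 2, 19, 11 and 6) and Adam5 (8, 5, 4, 13, 13 and 9) were not.

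Both directions occurred in every family. Of 18 reported MMP genes 7 fell and 2 rose, of 15 ADAMTS genes 4 fell and 7 rose, of 11 ADAM genes 1 fell and 2 rose, and of 3 TIMP genes 1 fell and 1 rose. Without the genes that reached 10 counts in only 1 group, 4 fell and 2 rose of 15 MMP genes, and 4 fell and 6 rose of 14 ADAMTS genes. Over all genes tested, 10.1% were called lower and 12.8% higher, and whether the proportions differ between the families was not tested. For each gene whose libraries did not overlap, the exact permutation test of 3 libraries against 3 (two-sided) gave p = 0.1, the smallest it allows, so the adjusted p-values below come from edgeR's fit across all genes.

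**Figure D1:**
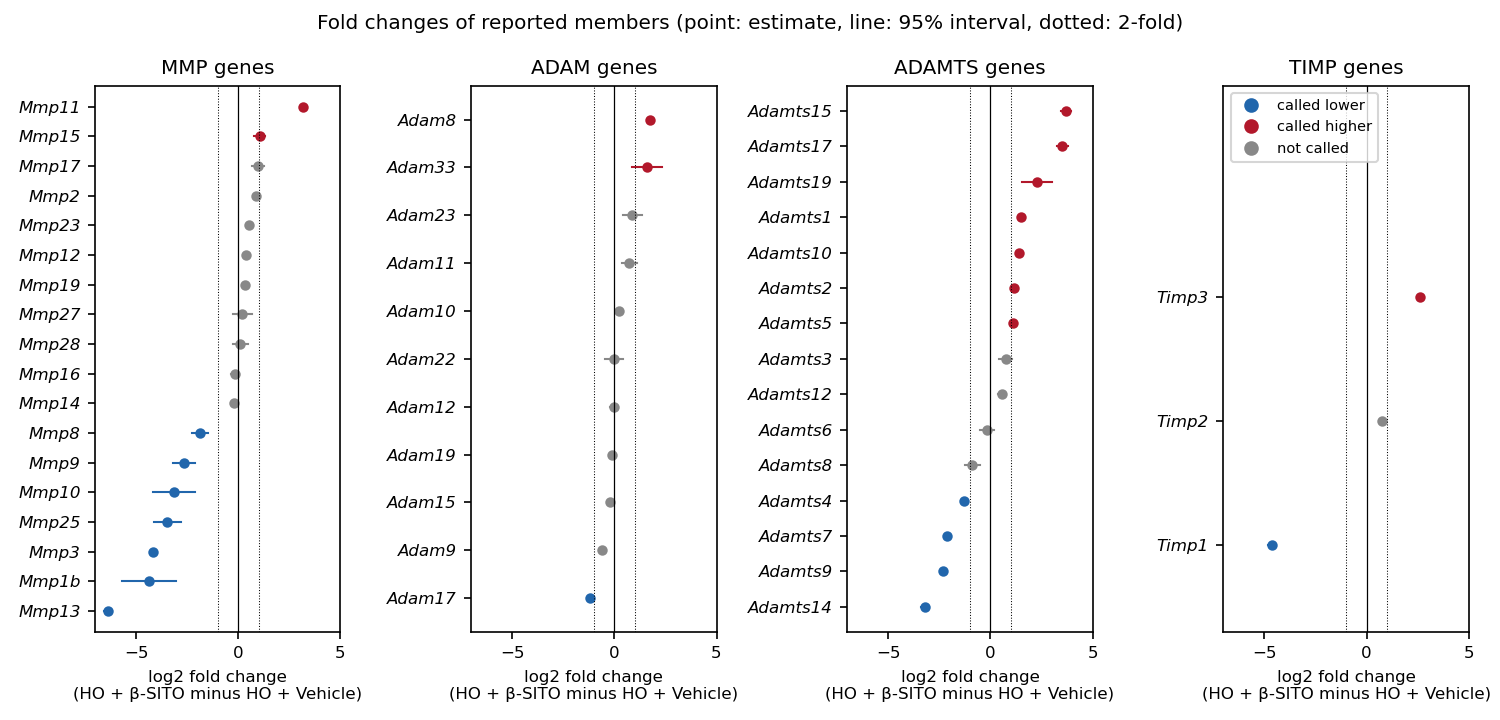
Log2 fold change (HO + β-SITO minus HO + Vehicle) of the 47 reported genes by family, with points for estimates, lines for 95% intervals and dotted lines at 2-fold. Blue points are the 13 genes called lower, from Mmp13 at −6.37, and red points the 12 called higher, up to Adamts15 at 3.70.

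The inhibitors moved in opposite directions, Timp1 down and Timp3 up. Timp1, on chromosome X at 20736405 to 20740974 (GRCm39, as for all gene positions), encodes an inducible secreted inhibitor. It stood at 1635, 1874 and 1671 CPM in V1 to V3 and at 68.5, 69.2 and 68.9 CPM in T4 to T6. All vehicle libraries lay far above all β-SITO libraries, and Timp1 fell by 4.65 on the log2 scale (SE 0.0748, adjusted p = 1.48e-16 by edgeR), with means 25.1-fold apart. Timp3, whose protein is bound to the matrix and also inhibits ADAM17 and several ADAMTS enzymes, was at 135, 112 and 131 CPM with vehicle and 793, 758 and 761 with β-SITO. It rose 6.12-fold (log2 2.61, SE 0.0741, adjusted p = 7.73e-14). Timp2, an inhibitor that also helps MMP14 to activate MMP2, was at 817, 774 and 815 CPM with vehicle and 1426, 1345 and 1303 with β-SITO. Every β-SITO library was above every vehicle library, but the difference of 0.76 (SE 0.0601, adjusted p = 2.24e-08) stayed within 2-fold and Timp2 was not called. Timp4, known from adult heart, had 0, 1 and 0 counts with vehicle and 1, 0 and 3 with β-SITO and was not tested.

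On a per-length scale (FPKM, CPM per kilobase of annotated exon), which allows genes to be compared, Timp1 had a mean of 1944 FPKM with vehicle, against 206 for Timp2 and 15.5 for Timp3. With β-SITO the means were 77.5, 348 and 94.6 FPKM, so Timp1 passed from first to last of the 3. Timp1 made up 89.1 to 90.9% of the summed TIMP FPKM in the vehicle libraries and 14.3 to 15.3% in the β-SITO libraries, and Timp2 made up 8.56 to 10.1% and 66.2 to 67.7%. Summed TIMP expression per length was 2067 to 2323 FPKM with vehicle and 505 to 540 with β-SITO. Counts alone do not show this, because Timp1 is the shortest transcript of the family, and the TIMP genes took 0.245 to 0.264% of all counts with vehicle and 0.224 to 0.241% with β-SITO. The whole of Timp1 lies within Syn1, a gene on the opposite strand that was called lower, with a mean of 3.55 CPM with vehicle and 1.24 with β-SITO, levels far below those of Timp1.

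**Figure D2:**
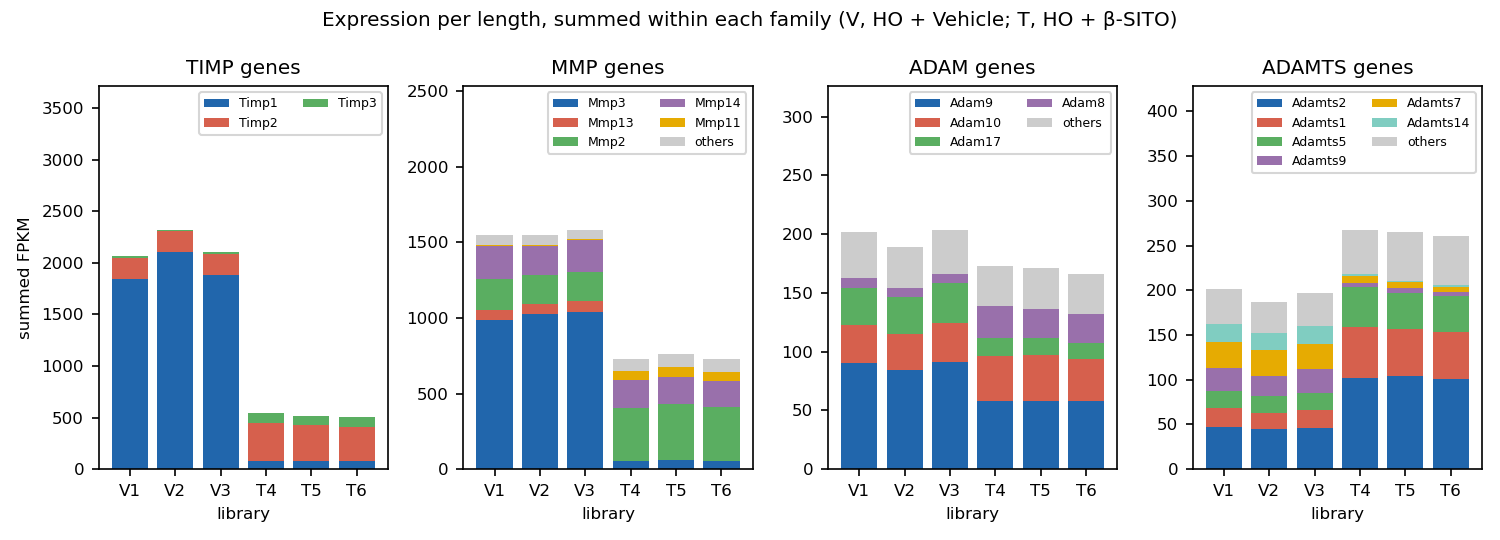
Summed expression per length (FPKM) in each library (V1 to V3, HO + Vehicle; T4 to T6, HO + β-SITO), stacked by gene within the TIMP, MMP, ADAM and ADAMTS families. The Timp1 block shrinks from 89.1 to 90.9% of the TIMP total to 14.3 to 15.3%, and the Mmp3 block from 63.8 to 66.0% of the MMP total to 7.42 to 7.71%.

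Of the 7 MMP genes that fell, 5 are stromelysins and collagenases of 1 cluster on chromosome 9. Between 7272514 and 7699586 (427 kb) lie 10 protein-coding genes in the annotation of the table, and all 10 are MMPs. In order they are Mmp13, Mmp12, Mmp1b, Mmp3, Mmp1a, Mmp10, Mmp8, Mmp27, Mmp20 and Mmp7. Mmp1a, Mmp20 and Mmp7 had no count in any library. Of the 7 others, 5 fell, against 10.1% of all genes tested, and Mmp12 and Mmp27 were not called. Mmp1b and Mmp10 are among the 5 and are reported only for their counts with vehicle, and 3 of 5 fell without them. RefSeq promoter sequences (GRCm38.p6, 250 bases before to 50 after the transcript start) are shown for 4 of the genes that fell and for Mmp12 between them, because these 5 windows hold the same 2 short motifs and the genes did not move alike. Capitals mark TGANTCA, the letters of the AP-1 motif, which read the same on both strands, and TATAAA, the letters of the TATA box, searched on the gene's own strand. The windows are chr9:7272264-7272563 (plus strand) for Mmp13, chr9:7445572-7445871 (plus) for Mmp3, chr9:7502092-7502391 (plus) for Mmp10, chr9:7387977-7388276 (minus) for Mmp1b and chr9:7347124-7347423 (plus) for Mmp12.
Mmp13: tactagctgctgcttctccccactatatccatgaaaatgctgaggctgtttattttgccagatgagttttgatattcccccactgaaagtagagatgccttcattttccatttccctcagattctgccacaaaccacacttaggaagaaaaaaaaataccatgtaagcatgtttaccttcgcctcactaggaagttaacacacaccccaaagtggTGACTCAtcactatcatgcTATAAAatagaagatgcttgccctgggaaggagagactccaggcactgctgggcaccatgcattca
Mmp3: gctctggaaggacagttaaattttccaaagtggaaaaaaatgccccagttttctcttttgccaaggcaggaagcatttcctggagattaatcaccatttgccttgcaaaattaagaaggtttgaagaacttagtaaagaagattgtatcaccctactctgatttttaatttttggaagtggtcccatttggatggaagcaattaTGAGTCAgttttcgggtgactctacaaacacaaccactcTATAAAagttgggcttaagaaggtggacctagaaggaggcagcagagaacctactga
Mmp10: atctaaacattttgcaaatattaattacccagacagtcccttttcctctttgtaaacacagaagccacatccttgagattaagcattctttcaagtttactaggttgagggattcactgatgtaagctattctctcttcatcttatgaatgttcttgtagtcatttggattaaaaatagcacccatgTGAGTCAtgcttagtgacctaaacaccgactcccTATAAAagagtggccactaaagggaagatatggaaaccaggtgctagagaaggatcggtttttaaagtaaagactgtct
Mmp1b: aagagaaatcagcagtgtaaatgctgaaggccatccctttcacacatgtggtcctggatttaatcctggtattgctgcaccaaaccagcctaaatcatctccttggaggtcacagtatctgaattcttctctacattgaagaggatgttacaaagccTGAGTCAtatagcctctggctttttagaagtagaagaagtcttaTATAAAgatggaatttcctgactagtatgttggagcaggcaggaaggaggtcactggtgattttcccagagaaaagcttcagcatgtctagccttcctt
Mmp12: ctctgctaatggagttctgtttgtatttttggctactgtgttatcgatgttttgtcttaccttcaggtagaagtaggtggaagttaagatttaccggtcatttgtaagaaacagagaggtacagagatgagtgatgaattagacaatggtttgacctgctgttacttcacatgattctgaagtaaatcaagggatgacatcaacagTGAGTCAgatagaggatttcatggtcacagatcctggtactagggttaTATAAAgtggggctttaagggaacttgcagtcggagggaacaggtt

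Counted from the start as +1, the AP-1 motif begins at −35 in Mmp13, −46 in Mmp3, −63 in Mmp10, −93 in Mmp1b and −44 in Mmp12. The letters TATAAA begin at −16, −7, −29, −49 and +5 in the same order, so in Mmp12 they lie after the annotated start. Whether they serve as a TATA box of these starts was not tested. A second RefSeq promoter of Mmp12 (chr9:7344147-7344446) holds neither. The promoters of Mmp8, which also fell, and of Mmp27, which was not called, hold neither as well. Promoters were found for 30 of the 47 reported genes. AP-1 letters occurred in 4 of 10 called lower, 0 of 7 called higher and 2 of 13 not called (Mmp12 and Adam19), and in 7.81% of all 32851 promoters. Of the 4 called lower, Mmp1b and Mmp10 are reported only for their counts with vehicle, as is Mmp25 among the 10. TATAAA occurred in the same 4 of 10, in 1 of 7 (Adamts1) and in 1 of 13, and in 8.32% of all promoters. The NF-κB consensus, searched on both strands, was found in Mmp25 and Adam19 (4.51% of all promoters), and TTCNNNGAA, the STAT motif, in Mmp23 (8.30%). The motifs were chosen with the fold changes known, and a match is a description of the letters and no evidence of binding.

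Mmp3 encodes stromelysin, which cuts proteoglycans and fibronectin and activates other MMPs. It was at 1779, 1843 and 1877 CPM with vehicle and 97.7, 105 and 99.2 with β-SITO. The groups were far apart, and Mmp3 fell by 4.19 (SE 0.067, adjusted p = 1.40e-16), with means 18.2-fold apart. Mmp13 encodes the main interstitial collagenase of the mouse. It stood at 176, 182 and 192 CPM with vehicle and 2.47, 2.08 and 2.08 with β-SITO, and fell by 6.37 (SE 0.0917, adjusted p = 6.21e-17), the strongest fall of the family, with means 82.6-fold apart. The stromelysin Mmp10 had 48 counts in the vehicle libraries together and 6 in the β-SITO libraries, and the collagenase Mmp1b had 42 (12, 13 and 17 in V1 to V3) and 2 (1, 0 and 1 in T4 to T6). Both were called lower. Their ratios of vehicle over β-SITO were 9.43 (95% interval 4.03 to 27.0) and 24.7 (6.44 to 211), where the intervals cover counting error only. Mmp1b overlaps Mmp12 by 1261 bases on the opposite strand, and since the strand setting of the counting is not given in the sources used here, its counts are uncertain. Mmp8, the collagenase of neutrophils, had 6.57 to 6.64 CPM with vehicle and 1.46 to 2.31 with β-SITO and fell by 1.87 (SE 0.184, adjusted p = 2.74e-07).

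Mmp12, the macrophage elastase, was not lower although it lies among them. It had 46.1 to 51.4 CPM with vehicle and 62.9 to 66.2 with β-SITO, without overlap, and its log2 fold change was 0.39 (SE 0.065, adjusted p = 8.57e-05), within 2-fold. Mmp27 had 2.21 to 3.70 and 3.09 to 4.37 CPM, which overlap (adjusted p = 0.468). Macrophage markers were higher in sum in the same libraries, as given above, and their part in the Mmp12 value was not tested.

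**Figure D3:**
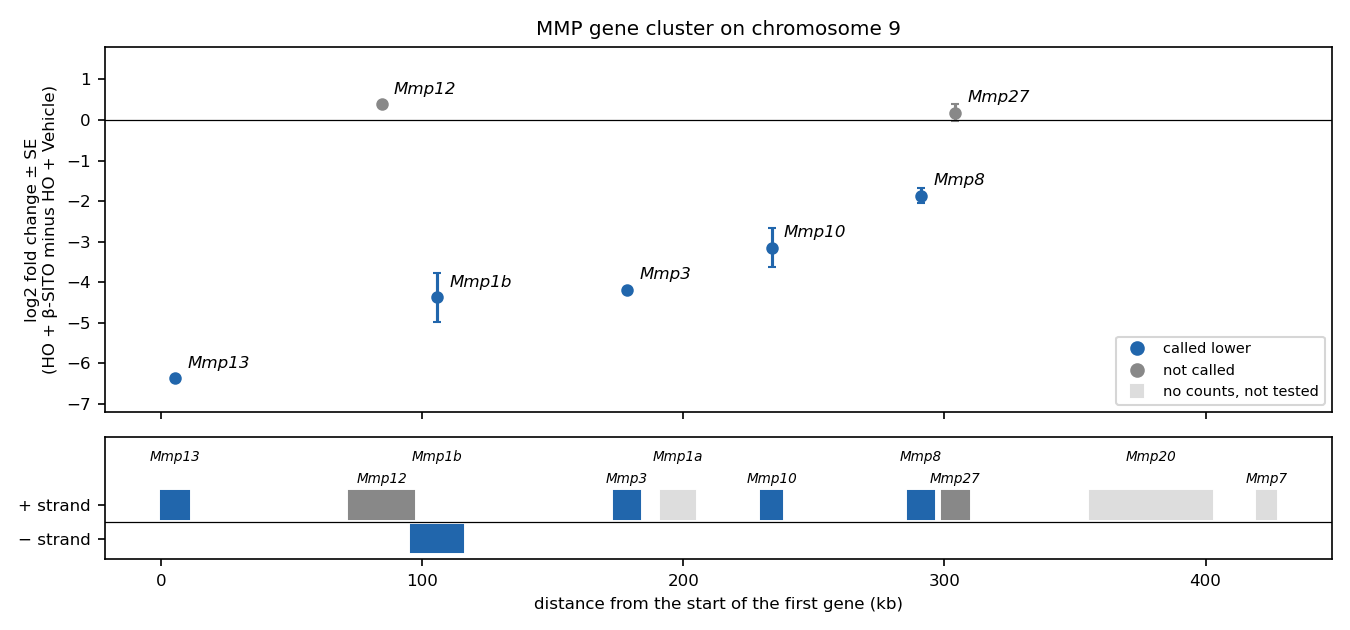
Log2 fold change ± SE (HO + β-SITO minus HO + Vehicle, n = 3 libraries each) of the 7 reported MMP genes of the chromosome 9 cluster against distance from the start of Mmp13 in kilobases, with gene bodies by strand below. Mmp13, Mmp1b, Mmp3, Mmp10 and Mmp8 lie between −6.37 and −1.87. Mmp12, placed among them, lies at 0.39, and Mmp27, next after Mmp8, at 0.19.

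The gelatinases, which cut denatured collagen and basement membrane, differed from each other. Mmp9, the inducible one, was low throughout, with 6.06, 4.39 and 5.02 CPM with vehicle and 1.13, 0.731 and 0.573 with β-SITO. It fell by 2.65 (SE 0.249, adjusted p = 1.63e-07). Mmp2, the constitutive one of stromal cells, was at 695, 641 and 645 CPM with vehicle and 1181, 1256 and 1200 with β-SITO. The groups did not overlap, yet the difference of 0.88 (SE 0.0601, adjusted p = 3.89e-09) was within 2-fold, and it passed 2-fold with library size scaling (1.03). Mmp25, a membrane-type MMP of leukocytes, had 3.66, 3.45 and 3.10 CPM with vehicle and 0.463, 0.169 and 0.260 with β-SITO and fell by 3.47 (SE 0.308, adjusted p = 8.43e-08). Mmp25 reached 10 counts only with vehicle and is reported for that alone, so it had to differ. Mmp8, Mmp9 and Mmp25 are best known from neutrophils. Of 12 neutrophil markers only 3 had enough counts to test, and all 3 were called lower. The 12 together summed to 498 to 550 CPM with vehicle and 5.62 to 8.38 with β-SITO. With vehicle, but not with β-SITO, the sum came mostly from Lcn2 (means 500.3 and 1.38 CPM), which other cells also make. Ly6g, Elane, Cxcr2 and Retnlg had 3 counts or fewer in every library.

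Mmp14, the membrane-type enzyme that activates MMP2, was the most abundant of its class per length. It had 1286, 1169 and 1249 CPM with vehicle and 1081, 1076 and 1025 with β-SITO. The vehicle libraries were all higher, but by little, with a log2 fold change of −0.22 (SE 0.0603, adjusted p = 0.00475). Mmp15, another membrane-type MMP, had 23.1, 16.8 and 18.0 CPM with vehicle and 32.5, 45.5 and 42.2 with β-SITO and rose by 1.05 (SE 0.127, adjusted p = 2.90e-06). This call lies close to the limit, and the log2 fold change was 0.96 without V2 and 0.98 without T5, both within 2-fold. Mmp17 (0.95) and Mmp23 (0.51) passed the adjusted p within 2-fold and Mmp16 (−0.15, adjusted p = 0.172) did not.

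Mmp11, or stromelysin-3, is made by stromal cells in remodelling tissue, is activated by furin inside the cell and does not cut the major collagens. It had 17.9, 20.2 and 18.3 CPM with vehicle and 169.8, 169.6 and 165 with β-SITO. The groups were widely separated, and Mmp11 rose 8.93-fold (log2 3.16, SE 0.068, adjusted p = 2.86e-15), the strongest rise among the MMP genes. Its overlapping neighbour on the opposite strand, Chchd10, had a log2 fold change of 0.62 and was not called. Mmp28, also activated by furin, had 3.95 to 5.56 and 4.52 to 5.93 CPM, which overlap. Mmp19 had a difference of 0.35 (SE 0.065).

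Per length, Mmp3 led the family with vehicle at a mean of 1018 FPKM, before Mmp14 (207), Mmp2 (196) and Mmp13 (68.6). With β-SITO the order was Mmp2 (359.7), Mmp14 (178), Mmp11 (60.5) and Mmp3 (55.9). Summed MMP expression was 1548 to 1584 FPKM with vehicle and 726 to 759 with β-SITO. Mmp2 took 12.1 to 13.3% of it in the vehicle libraries and 47.9 to 49.1% in the β-SITO libraries, and Mmp11 took 0.415 to 0.470% and 8.05 to 8.36%.

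**Figure D4:**
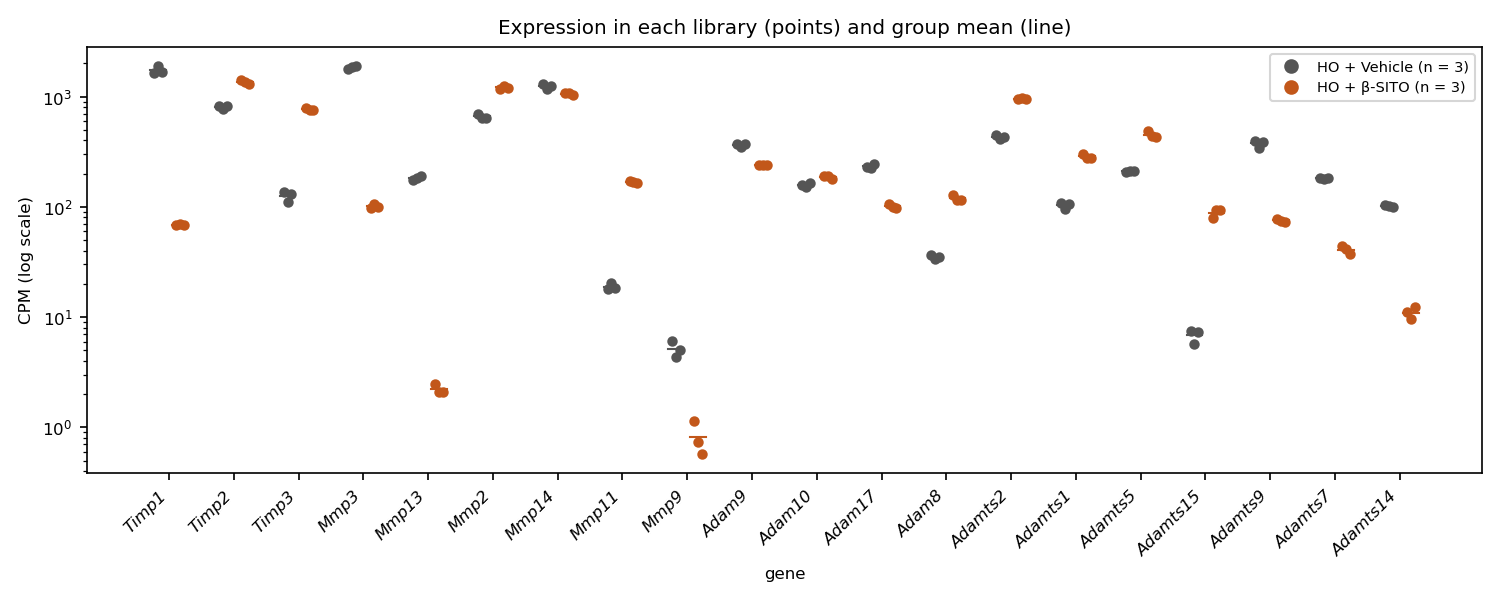
CPM on a log scale in each of the 6 libraries for 20 genes of the TIMP, MMP, ADAM and ADAMTS families, with a point per library and a line at the group mean. Timp1 (1635 to 1874 against 68.5 to 69.2) and Mmp13 (176 to 192 against 2.08 to 2.47) show vehicle libraries above β-SITO libraries, and Mmp11, Timp3 and Adamts15 the opposite order.

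Of the 11 reported ADAM genes, 1 fell and 2 rose, a share near the 22.8% of all genes tested that were called. Adam17 encodes the enzyme that releases TNF and many other surface proteins. It was at 229.7, 225 and 244 CPM with vehicle and 107, 100.4 and 97.7 with β-SITO, and it fell by 1.20 (SE 0.0602, adjusted p = 8.89e-11). Adam10, the related sheddase of Notch and cadherins, had 159, 151 and 165 CPM with vehicle and 188, 191 and 178 with β-SITO. It did not overlap either, but its difference was only 0.23 (SE 0.0584, adjusted p = 0.00236). Adam8, an ADAM of leukocytes, stood at 36.8, 33.7 and 35.3 CPM with vehicle and 129, 115 and 114 with β-SITO and rose 3.39-fold (log2 1.76, SE 0.0693, adjusted p = 4.31e-12). Adam33 rose as well, at a low level, from 0.632, 0.313 and 0.372 CPM to 1.54, 1.18 and 1.25 (log2 1.58, SE 0.344, adjusted p = 0.000822). Adam9 was the most abundant ADAM per length in both groups, with 371, 347 and 374 CPM with vehicle and 239, 240.1 and 237 with β-SITO. All its β-SITO libraries were lower, with a difference of −0.61 (SE 0.0562, adjusted p = 1.37e-07) that was within 2-fold.

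The other ADAM genes gave smaller differences. Adam11 (0.74) and Adam23 (0.89), which lack protease activity and are known from neurons, and Adam15 (−0.22) passed the adjusted p within 2-fold. Adam12, Adam19 and Adam22 overlapped between the groups, with log2 fold changes of −0.03, −0.12 and −0.01, and took the opposite sign with library size scaling. Summed ADAM expression was 189 to 204 FPKM with vehicle and 167 to 174 with β-SITO. Adam17 took 15.9 to 16.7% of it with vehicle and 8.18 to 8.59% with β-SITO, Adam10 16.0 to 16.4% and 21.7 to 22.7%, and Adam8 3.73 to 3.92% and 14.5 to 16.0%. Most of the ADAM genes under the limit belong to a group known from testis.

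The ADAMTS genes divided within their own classes. Among the hyalectanases, which cut versican and aggrecan, 3 rose and 2 fell of 6. Over all genes tested, 12.8% were called higher and 10.1% lower. Adamts15 had 7.45, 5.70 and 7.31 CPM with vehicle and 79.5, 92.7 and 94.0 with β-SITO, and it rose 13.0-fold (log2 3.70, SE 0.104, adjusted p = 6.83e-14), the strongest rise of any reported gene here. Adamts1 had 108, 95.3 and 106 CPM and then 304, 277 and 279 (log2 1.47, SE 0.0659, adjusted p = 2.08e-11). Adamts5, its neighbour on chromosome 16 with a gap of 53.1 kb and no protein-coding gene between, rose by 1.10 (SE 0.0619, adjusted p = 3.59e-10). These 3 were separated between the groups without overlap. Adamts9 went down from 394, 343 and 389 CPM to 78.2, 75.1 and 72.5, and it fell by 2.32 (SE 0.0685, adjusted p = 1.26e-13). Adamts4 had 90.9, 79.7 and 91.3 CPM with vehicle and 34.1, 37.0 and 36.7 with β-SITO and fell by 1.28 (SE 0.0713, adjusted p = 3.11e-10). Adamts8 lies 20.1 kb from Adamts15 on chromosome 9, with no protein-coding gene between, and had a difference of −0.89 (SE 0.166, adjusted p = 0.000233) against 3.70 in its neighbour. It passed 2-fold without T5 (−1.07).

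The procollagen N-propeptidases remove the amino-terminal propeptide of fibrillar procollagens. Adamts2, the main one, was at 444, 413 and 428 CPM with vehicle and 946, 976 and 943 with β-SITO and rose by 1.16 (SE 0.0576, adjusted p = 7.76e-11). Adamts14, its close relative, was at 103, 101 and 99.2 CPM with vehicle and 11.2, 9.56 and 12.2 with β-SITO and fell by 3.20 (SE 0.0824, adjusted p = 2.37e-14), with means 9.19-fold apart. The third, Adamts3, had a difference of 0.76 (SE 0.149). The COMP-cleaving pair also parted. Adamts7 had 184, 178 and 182 CPM and then 44.0, 41.4 and 37.5 and fell by 2.15 (SE 0.0666, adjusted p = 2.28e-13), while Adamts12 had a difference of 0.57 (SE 0.0807, adjusted p = 1.68e-05). Adamts7 overlaps an expressed gene on the opposite strand, Tbc1d2b (145 and 113 CPM), which was not called.

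Adamts10 and Adamts17, which are linked to fibrillin microfibrils, both rose. Adamts17 had 3.98, 2.63 and 2.67 CPM with vehicle and 32.5, 36.8 and 37.4 with β-SITO (log2 3.52, SE 0.131, adjusted p = 2.06e-12). Adamts10 had 65.9 to 69.2 and 177 to 185 CPM (log2 1.42, SE 0.0567, adjusted p = 5.34e-12). The groups did not overlap for either gene. Adamts19 had 0.442, 0.251 and 0.496 CPM and then 2.31, 2.08 and 1.41 (log2 2.26, SE 0.347, adjusted p = 3.40e-05), and Adamts6 overlapped between the groups (adjusted p = 0.385). Adamts19 reached 10 counts only with β-SITO and is reported for that alone, so it had to differ. Summed ADAMTS expression was 187 to 201 FPKM with vehicle and 261 to 268 with β-SITO, the opposite order to the other 3 families. Adamts2 took 23.3 to 23.7% of it with vehicle and 37.8 to 39.4% with β-SITO, Adamts7 14.6 to 15.2% and 2.28 to 2.61%, and Adamts14 9.68 to 10.5% and 0.692 to 0.901%.

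Genes that activate, restrain or carry these proteases were examined next. Of 33 listed, 27 were tested, 5 fell and 11 rose, against 10.1% of all genes tested called lower and 12.8% higher, and the median log2 fold change was 0.53. Plau, the urokinase that starts the plasmin cascade, had 14.7 to 15.9 CPM with vehicle and 104 to 113 with β-SITO and rose by 2.83 (SE 0.0702). Plasminogen itself (Plg) had no count. Among protease inhibitors, A2m rose by 2.32 and Reck by 1.59, and Tfpi2 fell by 2.78. Spock2, a matrix proteoglycan, rose by 2.32, and Cd44, which can hold MMP9 at the cell surface, fell by 2.60. Furin, which activates membrane-type MMPs and ADAMs, had a difference of −0.48 and Pcsk6, a related convertase, rose by 1.79. The partners of the sheddases moved apart. Rhbdf2 (iRhom2), which carries ADAM17 to the surface, fell by 1.23, with 52.6 to 58.2 CPM with vehicle and 22.4 to 24.7 with β-SITO, while Rhbdf1 (−0.47) and Frmd8 (−0.21) stayed within 2-fold. Of the tetraspanins that bind ADAM10, Tspan5 (1.66), Tspan14 (1.71), Tspan15 (1.49) and Tspan33 (1.86) rose and Tspan17 (−0.05) did not pass the test. Tspan33 was at a low level, with 0.316 to 0.682 CPM with vehicle and 1.63 to 2.19 with β-SITO (SE 0.321). Tspan15 was also low, with 1.14 to 1.67 and 3.91 to 4.63 CPM (SE 0.209).

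Related secreted enzymes and ADAMTS-like proteins numbered 16, of which 10 were tested, 1 fell (10.1% of all genes tested) and 5 rose (12.8%), with a median of 1.05. Pappa and Pappa2, which cut IGF-binding proteins, rose by 2.89 and 2.24, and Adamtsl1 rose by 2.14. Tll1, a procollagen C-proteinase, fell by 2.19, and its relative Bmp1 had a difference of −0.33.

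Transcripts of surface proteins that ADAM10 and ADAM17 cut were called lower more often than higher, and many were not called. Of 30 listed 26 were tested, 11 fell and 4 rose, with a median of −0.33, where 10.1% of all genes tested were called lower and 12.8% higher. Tnf had 41.8 to 43.0 CPM with vehicle and 2.36 to 3.08 with β-SITO and fell (adjusted p = 3.30e-14). The adhesion molecules Icam1 (log2 −4.74) and Vcam1 (log2 −4.40), the growth factor Btc (log2 −4.61) and the chemokine Cxcl16 (log2 −3.78) fell as well. Trem2, Csf1r and Mertk of macrophages rose by 2.95, 1.54 and 1.16 and Cdh5 of endothelium by 1.84. Csf1r and Cdh5 are also on the marker lists of those cells.

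Of 26 listed matrix proteins that these enzymes cut, 24 were tested, 2 fell and 7 rose, with a median of 0.59. The share that fell is near the 10.1% of all genes tested, and 12.8% of all genes were called higher. The 2 that fell were Vcan, or versican (649.8 to 727 CPM with vehicle, 115 to 153 with β-SITO, log2 −2.37, SE 0.0902), and Tnc, or tenascin C (log2 −2.05). Acan, or aggrecan, was called higher (log2 1.46, SE 0.379, adjusted p = 0.0032 by edgeR), although its libraries overlapped. It had 2.11 to 3.35 CPM with vehicle and 2.67, 9.50 and 10.9 in T4 to T6. Eln, which encodes elastin, rose by 1.34, Thbs2 by 1.75, Fbn2 by 2.41, Comp by 2.34 from under 1 CPM and Vwf by 4.09. Vwf is also on the marker list of endothelial cells. Adamts13, classed here as the enzyme that cuts its protein, had 3, 3, 1, 1, 0 and 2 counts in V1 to V3 and T4 to T6 and was not tested. The fibrillar collagens Col1a1, Col1a2 and Col3a1 had differences of 0.42, 0.59 and 0.85, all within 2-fold. These values are RNA levels, and neither protein nor protease activity was measured in these libraries.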

How the data were processed

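RNA of hypoxic NMCMs was sequenced as paired-end reads in 6 libraries, 3 with vehicle and 3 with β-SITO. The authors deposited raw read counts per gene from featureCounts, with no normalization. The submitters' processing notes name FastQC, HISAT2, featureCounts and GRCm39, and the strand setting of the counting is not given in the sources used here. The library kit is given as ABclonal in the study's methods and as Illumina in the labels. Every gene is in 1 table, and groups were taken from the sample titles.

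From these counts, genes were filtered with filterByExpr, normalized with TMM and tested with edgeR 4.0.16 in R 4.3.3 (quasi-likelihood test, group as the only term, Benjamini-Hochberg adjustment over 14799 genes), after the steps had been checked on simulated data. The SE is the size of the log2 fold change divided by the square root of F. Calls needed more than 2-fold with an adjusted p under 0.05, as in the study, which used DESeq2. At this depth 3 counts in a library come to 0.154 to 0.190 CPM, and the biological coefficient of variation was 6.52%. No libraries were duplicates, since the chi-square per degree of freedom between libraries of a group was 1.94 to 9.00, where T4 differed more from T5 and T6 (8.49 and 9.00) than these from each other (1.94). FPKM used exon lengths of GENCODE vM21, an annotation of GRCm38 matched by gene identifier and used for length only, found for all 47 reported genes.

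Values in every library are given for the TIMP genes, Mmp2, Mmp9, Mmp14, Adam10, Adam17, up to 4 called genes with the largest rise and 4 with the largest fall in each protease family and the 2 most abundant per length. In other lists up to 3 genes in each direction and known partners or substrates are named. Some genes chosen by this rule are left out of the text and not reported here. Genes outside this rule, such as Mmp8, Mmp12 and Adamts10, and the motifs were chosen after their values were seen. The members and lists were chosen with earlier results of these data known. Nrg1 was left out because its symbol stands on more than 1 row. Alternatives were other normalizations, filters, tests (DESeq2 1.42.0, limma-voom with limma 3.58.1, glmTreat), no fold-change cutoff and leaving out each library.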

Additional observations from a re-analysis of the deposited data

How the results depend on the processing

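No paired analysis was possible because the vehicle libraries are numbered 1 to 3 and the β-SITO libraries 4 to 6, so the groups share no replicate number. The number of reported genes called lower (13) or higher (12) stayed within 1.5 times under every other normalization, filter and test tried, and leaving out each library gave 13 to 14 and 11 to 13. Without the fold-change cutoff 23 genes were called higher, and the calls in the lists became 25 for activators, inhibitors and cofactors (16 with it), 10 for related metzincins (6) and 20 for matrix substrates (9). With each library left out these lists had 16 to 17, 6 to 7 and 9 to 10 calls, and the ADAM10 and ADAM17 substrates 15 to 16. Of 705 values of the 47 genes under the alternatives, 661 kept direction and side of the threshold, 5 in 3 genes lost the call (Adam33, Adamts5 and Mmp15 against a 2-fold null with glmTreat, and Mmp15 without V2 or T5), 24 in 15 genes gained one and 15 in 4 genes changed sign. The changes of sign were in genes that were never called. With library size alone and with upper quartile scaling, Adam12 was at 0.12 and 0.12, Adam19 at 0.024 and 0.020, and Adam22 at 0.14 and 0.13, and Adam22 was at 0.0053 with limma-voom. With libraries left out, Adam12 ranged from −0.13 to 0.10, Adam22 from −0.17 to 0.16 and Mmp28 from −0.011 to 0.26. The same scalings took Mmp2, Mmp17 and Adam23 past 2-fold and moved the calls over all genes from 1492 lower and 1888 higher to 1285 and 2270 with library size. Depth limits Mmp1b, Mmp10, Mmp25, Adam33 and Adamts19, which have few counts, and the 33 genes under the count limit were not tested.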
